A study of Mus musculus with 18 samples.

Results

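Transcript levels of 10 Notch pathway genes were followed across 18 mouse RNA sequencing libraries. The genes were matched by symbol to the gene names of both deposited tables, and each was found once per table, among 55183 genes in the cell table and 19464 in the brain table. They comprise 3 receptors (Notch1, Notch2 and Notch3), 3 ligands (Dll1, Dll3 and Jag1), the nuclear effector Rbpj and 3 target genes (Hes1, Hes5 and Hey1).

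The cells were PTCP53 304, a line labelled as Sonic hedgehog (SHH) medulloblastoma, a cerebellar tumour, with the genotype Ptch1+/-; Trp53-/- in every library. RNA was taken after 24 h (day 1 of culture) or 144 h (day 6) with vehicle or with CT-179, whose treatment the labels class as OLIG2 inhibition (OLIG2 is a transcription factor of glial progenitors), giving 4 groups of 3 libraries. The brains were whole brains of mice labelled Ptch1+/-; IR (the letters IR are not explained) that had vehicle or CT-179 for 12 days, from postnatal day 3 to postnatal day 15, in 2 groups of 3 libraries. All cell groups stem from a single line. The titles of the CT-179 brain samples also hold the word vehicle, so the direction of the brain comparison rests on their treatment label. The labels do not say whether replicates were separate cultures or animals, and the p-values below therefore measure only the spread between these libraries, which may be technical.

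Notch signalling acts between touching cells. A ligand of the Delta or Jagged family on one cell binds a Notch receptor on its neighbour; ADAM proteases and gamma-secretase then cut the receptor, and its intracellular domain moves to the nucleus, where it joins the DNA-binding protein RBPJ and switches on genes of the Hes and Hey families. Their products are repressors that hold back proneural factors, which in turn drive the Delta ligands; in the developing brain this loop keeps neural stem and progenitor cells undifferentiated and favours astrocytes over neurons. RBPJ binds DNA around the core TGGGAA, and proneural factors bind E-boxes such as CAGCTG, so the start sites of the members were searched for both.

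The 250 bases before the RefSeq start site (table build GRCm38.p6, the mm10 genome) were available for 8 members: Notch1, Notch2, Notch3, Dll1, Dll3, Jag1, Rbpj and Hes5. Hes1 and Hey1 had no entry. Both strands were searched for TGGGAA and for CAGCTG (its own reverse complement); the motifs do not overlap in these windows. TGGGAA was present in 2 of the 8 windows, Hes5 and Rbpj, each with 2 copies. Of the 32851 windows in the RefSeq table, 21.6% held it and 2.8% held it more than once. CAGCTG was present in Dll1, Dll3 and Jag1, against 13.0% of the windows in the table. The windows of Notch1, Notch2 and Notch3 held neither string. Printed are the windows of 3 members whose levels rose together between 24 h and 144 h, a target, a ligand and a receptor, at chr4:154960673-154960922 (plus strand) for Hes5, chr17:15376933-15377182 (minus strand) for Dll1 and chr17:32166891-32167140 (minus strand) for Notch3. They are written 5′ to 3′ along the gene, with TGGGAA (or TTCCCA on the other strand) and CAGCTG in capitals.
Hes5: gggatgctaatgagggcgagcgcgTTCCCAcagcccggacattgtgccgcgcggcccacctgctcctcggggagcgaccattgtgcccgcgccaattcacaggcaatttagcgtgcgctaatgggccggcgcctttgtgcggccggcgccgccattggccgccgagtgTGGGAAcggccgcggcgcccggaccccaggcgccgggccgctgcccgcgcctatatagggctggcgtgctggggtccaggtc
Dll1: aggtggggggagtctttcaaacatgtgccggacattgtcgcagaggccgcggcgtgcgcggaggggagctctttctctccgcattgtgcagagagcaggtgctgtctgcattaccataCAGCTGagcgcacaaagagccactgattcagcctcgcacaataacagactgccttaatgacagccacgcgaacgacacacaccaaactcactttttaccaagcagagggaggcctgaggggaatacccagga
Notch3: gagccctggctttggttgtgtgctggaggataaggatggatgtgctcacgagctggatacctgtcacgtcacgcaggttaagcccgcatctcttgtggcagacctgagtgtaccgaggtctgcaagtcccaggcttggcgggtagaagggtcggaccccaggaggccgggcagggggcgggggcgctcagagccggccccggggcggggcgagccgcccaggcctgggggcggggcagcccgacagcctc
The Hes5 copies begin 226 and 82 bases before the start, the first on the opposite strand, and the Dll1 E-box begins 132 bases before it. A match is a description of the letters and not evidence of binding.

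In the deposited mm10 coordinates Notch1 (ENSMUSG00000026923.15) spans chr2:26457903-26516663, Notch2 (ENSMUSG00000027878.11) chr3:98013538-98150361 and Notch3 (ENSMUSG00000038146.8) chr17:32120820-32166852. Dll1 (ENSMUSG00000014773.13) lies at chr17:15367354-15376872, Dll3 (ENSMUSG00000003436.11) at chr7:28293553-28302238 and Jag1 (ENSMUSG00000027276.7) at chr2:137081456-137116644. Rbpj (ENSMUSG00000039191.12) covers chr5:53466152-53657362, Hes1 (ENSMUSG00000022528.8) chr16:30064384-30067796, Hes5 (ENSMUSG00000048001.7) chr4:154960923-154962371 and Hey1 (ENSMUSG00000040289.8) chr3:8663359-8667256. The strand of counting was not given in the sources used here, so reads from overlapping antisense genes cannot be told apart. In GENCODE M21 such a gene covers 31.8% of the exonic bases of Hes5 (Gm20421) and 20.5% of those of Dll1 (A930024N18Rik), and smaller shares of Notch1 (7.5% and 2.9%) and Notch3 (6.0%). Gm42820, on the same strand, covers 5.0% of Notch2.

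Levels are in FPKM, fragments per kilobase of gene scaled to the library's depth, which allows levels of different genes in the same table to be compared; levels were not compared between the tables. The smallest steps between low values put the depth of the cell libraries at 29650042 to 70854319 fragments and that of the brain libraries at 17751671 to 63669761, the lowest being vehicle replicate 2. At those depths the members rested on 552 (Hey1) to 22843 (Notch1) fragments per cell library, and on 45 (Dll3) to 4421 (Hey1) per brain library. Replicate 2 of CT-179 at 144 h stood apart, with a correlation of 0.941 and 0.943 to its 2 partners, where other pairs of cell replicates had at least 0.996. Most results that rest on it are given with and without it. Among 12 listed markers of granule neuron progenitors and SHH tumours, Atoh1, Barhl1 and Neurod1 stayed under 0.1 FPKM in all 12 cell libraries. These 3 markers were thus almost absent, while 6 of the 12 were at 1 FPKM or more in each 24 h library. In each vehicle library at 144 h, 8 of the 12 were. Of 8 endothelial and 8 microglia markers, 6 each were also under 0.1 FPKM in all cell libraries. The endothelial markers summed to 0.621 to 0.832 FPKM at 24 h in vehicle and 0.394 to 0.435 at 144 h. The microglia markers summed to 15.0 to 15.9 and 65.4 to 71.9 FPKM, with 1 of them at 1 FPKM or more in all cell libraries.

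**Figure D1:**
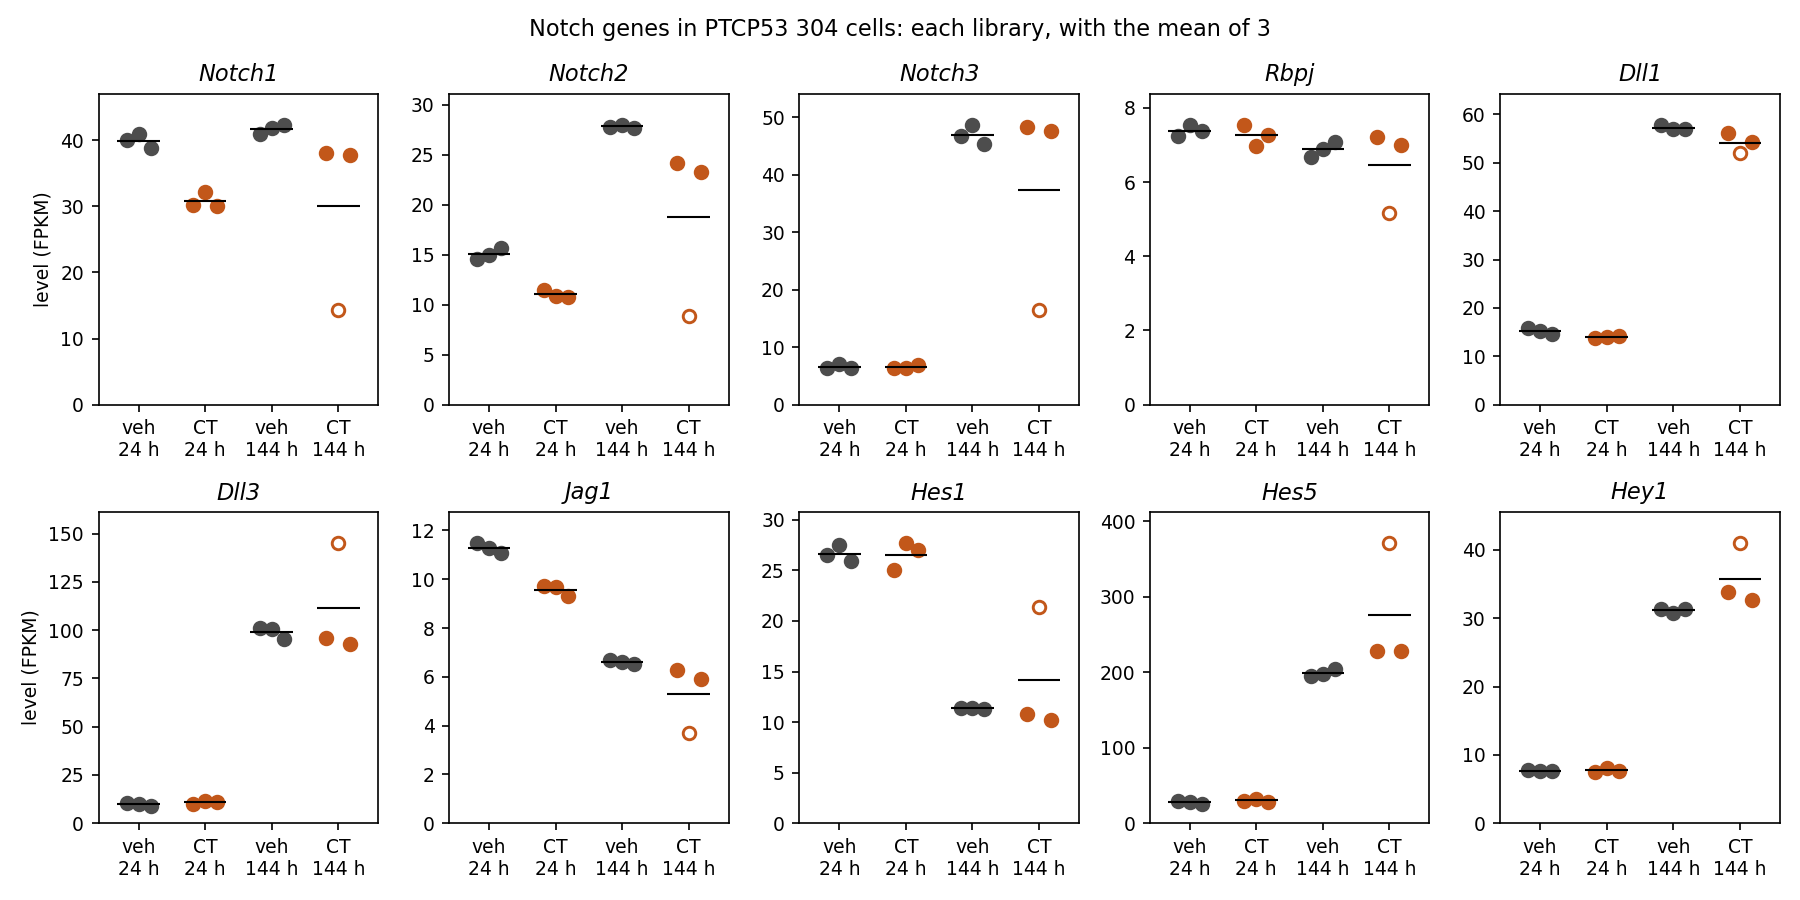
Level in FPKM (vertical axes, linear, from 0) of each member in the 12 cell libraries: vehicle (grey) and CT-179 (orange) at 24 h and 144 h, with the mean of 3 as a line. The open circle is replicate 2 of CT-179 at 144 h, which reads 14.2 FPKM for Notch1 and 371 for Hes5 where its partners read 37.8 to 38.1 and 228 to 229.

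Most of the Notch genes differed between the 2 culture times. Between 24 h and 144 h in vehicle, Dll3, Hes5, Notch3, Hey1, Dll1 and Notch2 rose, by 10.1-fold to 1.85-fold in mean FPKM, while Hes1 and Jag1 fell. That is 8 of the 10 members, with 66.5% of all 12510 genes tested called in the same comparison. With CT-179 the count was 7 of 10 (5 rose, 2 fell), against 65.3% of all genes. A share of this size over all genes means that the count by itself does not set these genes apart. How many of all genes had early and late libraries that did not overlap was not counted. A lack of overlap over time, given below for some members, therefore does not set them apart. With all libraries, the median log2 change of the members was 1.35 in vehicle and 1.24 in CT-179, beside 0.01 and -0.02 over all genes tested. The members were chosen with earlier results of these data known, so these medians do not set them apart either. Calls are an adjusted p (Benjamini-Hochberg over all genes) under 0.05 in limma on log2(FPKM + 1), a scale that understates changes of low genes.

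The receptors parted ways. Notch1 read 40.0, 41.0 and 38.7 FPKM in vehicle at 24 h and 40.9, 41.8 and 42.3 at 144 h. The 2 groups overlapped, and its log2 change was 0.06 (SE 0.29, adjusted p 0.86). Notch3, the receptor best known from vascular mural cells, read 6.32, 7.03 and 6.32 FPKM at 24 h and 46.8, 48.7 and 45.4 at 144 h. Every late library was above every early one, and Notch3 rose by 2.67 on the log2 scale (SE 0.32, adjusted p 2.5e-05). It was the lowest of the 10 members at 24 h and the fourth highest at 144 h, above Notch1. Notch2 read 14.6, 15.0 and 15.6 FPKM at 24 h and 27.8, 28.0 and 27.7 at 144 h, and rose by 0.84 (SE 0.28, adjusted p 0.022). That call depends on the full set of libraries: leaving out any of 5 vehicle libraries (24 h replicates 1 and 2, 144 h replicates 1, 2 and 3) gave adjusted p values of 0.051 to 0.057, with log2 changes of 0.82 to 0.85. The summed level of 8 mural markers was 2.92 to 3.32 FPKM at 24 h in vehicle and 8.86 to 9.64 at 144 h. Only 3 of the 8 could be tested, and they were split: Kcnj8 and Pdgfrb rose by 2.01 and 1.52, and Acta2 fell by 1.15 (adjusted p 3.6e-07). Rgs5, a defining pericyte gene, reached at most 0.19 FPKM in vehicle, and the part of mural cells in the Notch3 result was not tested.

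Of the ligands, both Delta genes rose and Jag1 fell. Dll1 read 15.8, 15.2 and 14.6 FPKM at 24 h in vehicle and 57.9, 57.1 and 56.9 at 144 h, and its log2 change was 1.85 (SE 0.05, adjusted p 3.1e-10). Dll3, a divergent Delta ligand that is known to act inside the cell that makes it rather than to activate a neighbour, went from 10.6, 9.82 and 8.94 FPKM to 101.2, 100.8 and 95.5. That is 10.1-fold in mean FPKM and 3.22 on the log2 scale (SE 0.15, adjusted p 1.4e-08), the largest change among the 10 members in vehicle. Early and late libraries did not overlap for either gene. Jag1 went the other way, from 11.5, 11.3 and 11.1 FPKM to 6.69, 6.61 and 6.54, a log2 change of -0.69 (SE 0.13, adjusted p 0.00093). Jag1 was above Dll3 at 24 h in vehicle and lowest of the 10 at 144 h, where its libraries overlapped those of Rbpj.

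Rbpj, which every receptor needs to act on its targets, was close to level. It read 7.23, 7.54 and 7.39 FPKM in vehicle at 24 h and 6.68, 6.91 and 7.08 at 144 h, with no overlap, and its log2 change of -0.09 (SE 0.10) did not pass (adjusted p 0.45). In the fit without replicate 2 of CT-179 at 144 h the same value passed (SE 0.04, adjusted p 0.034). With each library rescaled to TPM the change of Rbpj was 0.00.

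The 3 targets did not move together. Hes5 read 29.6, 28.3 and 25.6 FPKM in vehicle at 24 h and 194.9, 197.5 and 203.8 at 144 h, and rose by 2.79 on the log2 scale (SE 0.16, adjusted p 8e-08). Hey1 read 7.73, 7.60 and 7.59 FPKM early and 31.3, 30.8 and 31.3 late, and rose by 1.90 (SE 0.08, adjusted p 5.8e-09). Hes1 instead went from 26.5, 27.5 and 25.9 FPKM to 11.4, 11.4 and 11.3, and fell by 1.16 (SE 0.21, adjusted p 0.00054). At 24 h Hes5 and Hes1 were neighbours whose libraries overlapped, at means of 27.8 and 26.6 FPKM. At 144 h in vehicle Hes5 was the highest of the 10 members at 199 ± 4.63 FPKM (SD, n = 3) and Hes1 was eighth at 11.4 ± 0.05. The full order at 144 h in vehicle was Hes5, Dll3, Dll1, Notch3, Notch1, Hey1, Notch2, Hes1, Rbpj and Jag1, and only Rbpj and Jag1 overlapped. At 24 h in vehicle it was Notch1, Hes5, Hes1, Dll1, Notch2, Jag1, Dll3, Hey1, Rbpj and Notch3, with overlaps between Hes5 and Hes1 and between Dll1 and Notch2. The directions of the 8 called members were the same under median-of-ratios and TPM scaling.

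**Figure D2:**
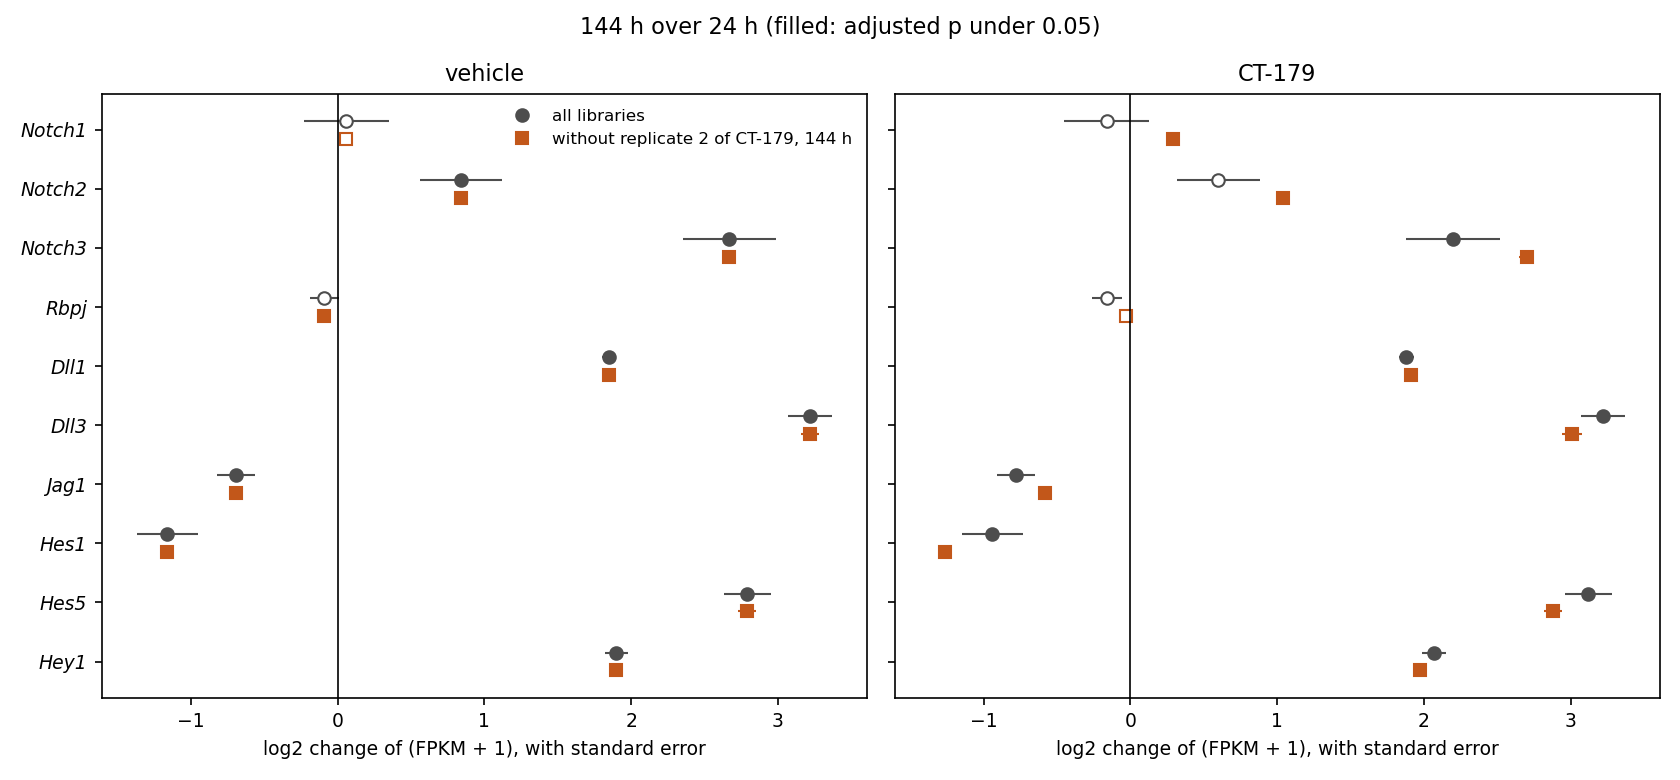
Log2 change of (FPKM + 1) from 24 h to 144 h (horizontal axis) for each member in vehicle and in CT-179, with standard errors, from all 12 cell libraries (grey circles) and without replicate 2 of CT-179 at 144 h (orange squares). Filled symbols have an adjusted p under 0.05: Dll3, at 3.22 in both panels for all libraries, lies farthest to the right, and Hes1 and Jag1 lie left of 0.

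With CT-179 the same time comparison gave log2 changes of 3.22 for Dll3, 3.12 for Hes5, 2.20 for Notch3, 2.07 for Hey1 and 1.88 for Dll1, and of -0.94 for Hes1 and -0.78 for Jag1. Notch2 reached 0.60 and did not pass (adjusted p 0.085). Without the library that stood apart, 85.6% of genes were called in CT-179 and 87.7% in vehicle, and 9 of the 10 members were called in each treatment. In CT-179 these included Notch2 at 1.04 (adjusted p 6.4e-11) and Notch1 at 0.29 (adjusted p 5.7e-06), which had been at -0.16 with all libraries. Rbpj was the member not called in CT-179, and Notch1 the member not called in vehicle. In CT-179 without that library, the changes were 3.01 for Dll3, 2.88 for Hes5, 2.70 for Notch3, 1.97 for Hey1 and 1.91 for Dll1. Hes1 stood at -1.26 and Jag1 at -0.58. Whether the time change itself differed between CT-179 and vehicle is tested by the difference of the 2 drug effects, given further on.

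Markers of other states moved with time as well. The summed level of 10 astrocyte markers was 504 to 534 FPKM in vehicle at 24 h and 1230 to 1240 at 144 h, and all 10 of them rose. Glial fibrillary acidic protein, Gfap, went from at most 0.45 FPKM to at least 85.9. The sum of 10 proliferation markers was 925 to 945 FPKM early and 108 to 114 late, and all 10 fell. Neuron markers summed to 40.9 to 42.4 FPKM early and 99.9 to 103 late (8 genes; of 5 tested 4 rose, with the tubulin Tubb3 at 3.70), and oligodendrocyte markers to 9.35 to 9.46 and 56.5 to 60.6 (8 genes; of 3 tested 2 rose, with Cnp at 2.93). Markers of oligodendrocyte progenitors summed to 1010 to 1130 FPKM early and 678 to 703 late; of 5 tested Olig2, Olig1 and Cspg4 fell, and Gpr17 and Pdgfra rose. The granule and SHH markers summed to 41.2 to 43.4 FPKM early and 82.4 to 84.6 late, and of 8 tested 4 rose, Gli1 by 2.63, and 1 fell. In bulk RNA a change in the share of cells of a type and a change in RNA per cell cannot be told apart. The part of these shifts in the Notch results was not tested.

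The wider pathway was read through 59 further genes in 6 lists, of which 51 passed the filter on low values; in vehicle 22 of these rose and 9 fell from 24 h to 144 h, beside 66.5% called over all genes, with a median of 0.20. Among other receptors and ligands, Notch4 fell from a range of 5.71 to 6.20 FPKM at 24 h to one of 0.25 to 0.28 at 144 h, a log2 change of -2.45 (adjusted p 4.3e-11). Dll4 and the Delta-like Dner rose, by 1.15 and 0.55. Jag2, at most 0.45 FPKM, Dlk1 and Dlk2 did not pass the filter. Both other targets that could be tested rose: Hey2 by 1.70 and Nrarp, a feedback inhibitor of the Notch complex, by 1.59, from 26.0 to 27.2 FPKM early to 77.4 to 86.3 late. Nrarp, Hey2, Hes5 and Hey1 moved in one direction and Hes1 in the other.

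Among 10 proteases that process the receptor 5 rose and none fell in vehicle, with the smallest p for the gamma-secretase subunit Psen2 at 1.05 and the convertase Furin at 0.65. Aph1b, another gamma-secretase subunit, stood at 0.78, but it has a close copy, Aph1c, and reads may be split between them. Of 5 glycosyltransferases that modify the receptor's extracellular repeats, the Fringe genes Mfng and Lfng rose by 1.10 and 0.74. Ubiquitin ligases and trafficking genes gave 7 that rose and 2 that fell among 12 tested, with Dtx1, a Deltex ligase that binds the receptor, at 2.62, Numbl, of the Numb family of Notch antagonists, at 2.05 and Neurl1b at -1.79. The 19 co-activators and co-repressors were split, with 4 that rose and 6 that fell, among them Tle4 at 1.18, Tle2 at -1.69 (both Groucho-type co-repressors) and the deacetylase Hdac1 at -0.90. Of 9 proneural genes 3 passed the filter.

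By likeness of pattern, the genes nearest to each of 4 members over the 12 cell libraries were named by Pearson's r of log2(FPKM + 1), as a description. Hes1 was most like Timm17a (0.9961), Pus1 (0.9947) and Mrto4 (0.9944). Ctxn1 and Itm2c (0.999 each) were among the genes nearest to Hes5. Dll1 was most like Cpt1c and Itga7 (0.9996 each) and Apba2 (0.9991), and Dll3 like Tspan15 and Slc22a17 (0.9993 each) and Helt (0.999). Such values were common: 779 genes had r above 0.95 with Hes1 and 1684 to 1935 with the others. The points share 4 groups that differ by culture time, and no p is given.

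**Figure D3:**
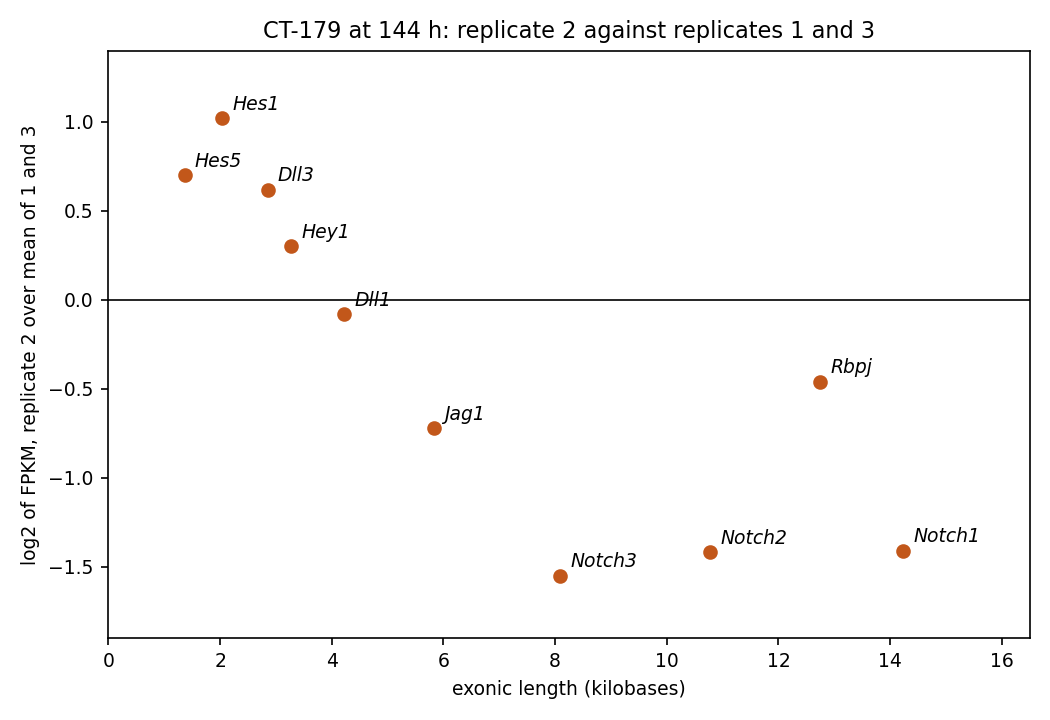
Log2 ratio of FPKM in replicate 2 of CT-179 at 144 h over the mean of replicates 1 and 3 (vertical axis) against exonic length in kilobases (horizontal axis), one point per member. The 4 members up to 3265 bases long lie above 0 and the 6 of 4219 bases or more lie below 0, from -0.08 for Dll1 to -1.55 for Notch3.

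CT-179 against vehicle gave smaller values than time for Dll3, Hes5, Notch3, Hey1, Dll1, Hes1 and Jag1. This did not hold for Notch1, at -0.36 by CT-179 at 24 h and 0.06 over time in vehicle. Which of the CT-179 values passed was decided by 1 library. Replicate 2 of CT-179 at 144 h read 2.03 times the mean of its partners for Hes1, 1.63 times for Hes5 and 1.54 times for Dll3, but 0.34 times for Notch3, 0.37 times for Notch2 and 0.38 times for Notch1. Short members were high and long ones low in it (Hes5 has 1363 exonic bases, Hes1 2037 and Dll3 2850, against 14232 for Notch1), though Rbpj, of 12750 bases, was at 0.73 times its partners. Over all genes, Spearman's rho between length and the log2 change by CT-179 at 144 h was -0.58 with this library and -0.34 without it. It was -0.41 at 24 h, where this library takes no part, so CT-179 values of long and short members are read beside the length trend: genes of at least 8000 bases had a median change of -0.08 at 24 h, and genes under 3000 bases had 0.05.

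At 24 h, none of the 10 members passed in the fit of all 12 libraries, which called 0.264% of all genes (33, all of them lower with CT-179), and none of the members had an unadjusted p under 0.05. Notch1 read 40.0, 41.0 and 38.7 FPKM in vehicle and 30.2, 32.1 and 30.0 with CT-179, with no overlap. Notch2 read 14.6, 15.0 and 15.6 FPKM in vehicle and 11.4, 10.9 and 10.8 with CT-179, also apart. Jag1 read 11.5, 11.3 and 11.1 FPKM against 9.71, 9.68 and 9.32. These 3 genes, and also Dll1, were lower in each of the 3 CT-179 libraries than in any vehicle library. How many of all genes part in this way was not counted for the cells, so it does not set these genes apart. The shared spread, which the 144 h library widens, gave Notch1 a log2 change of -0.36 with an SE of 0.29.

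Without that library the SE of Notch1 was 0.03, and 4 of the 10 members fell at 24 h, with 22.2% of all genes called. Notch2 fell by 0.42 on the log2 scale (SE 0.03, adjusted p 2.1e-05), Notch1 by 0.36 (SE 0.03, adjusted p 4.5e-05), Jag1 by 0.22 (SE 0.03, adjusted p 0.0011) and Dll1 by 0.11 (SE 0.03, adjusted p 0.02). Dll1 read 13.8, 13.9 and 14.3 FPKM with CT-179. In mean FPKM these are 1.37-fold, 1.30-fold, 1.18-fold and 1.09-fold lower levels. A fit of the 6 libraries of 24 h alone called Notch1, Notch2 and Jag1 (adjusted p 0.00099, 0.00072 and 0.0056). With the length trend removed and without the 144 h library, the 4 genes still passed, at -0.32 for Notch2, -0.23 for Notch1, -0.18 for Jag1 and -0.09 for Dll1. Notch1 and Notch2 are among the longest members, and the part of length beyond that correction was not tested. Of the 2762 genes called over all, 1007 rose and 1755 fell, a split that turned to 1968 and 1224 with median-of-ratios scaling. Under that scaling Notch1, Notch2 and Jag1 were called and Dll1 was not.

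The other receptor, the effector and the 3 targets were close to vehicle at 24 h. Notch3 read 6.31, 6.47 and 6.84 FPKM with CT-179, a log2 change of 0.00 from vehicle. Hes1 read 25.0, 27.7 and 27.0 FPKM against 26.5, 27.5 and 25.9 in vehicle, Hes5 read 29.5, 32.6 and 28.2 against 29.6, 28.3 and 25.6, and Hey1 read 7.48, 8.06 and 7.69 against 7.73, 7.60 and 7.59. Each of these pairs of groups overlapped. Without the 144 h library their log2 changes ran from -0.01 for Hes1 to 0.11 for Hes5 (adjusted p 0.94 and 0.19), and Rbpj stood at -0.02 (adjusted p 0.72). The receptors Notch1 and Notch2 were thus lower at 24 h while no test passed for Hes1, Hes5 or Hey1; whether receptors and targets differ in this was not tested.

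**Figure D4:**
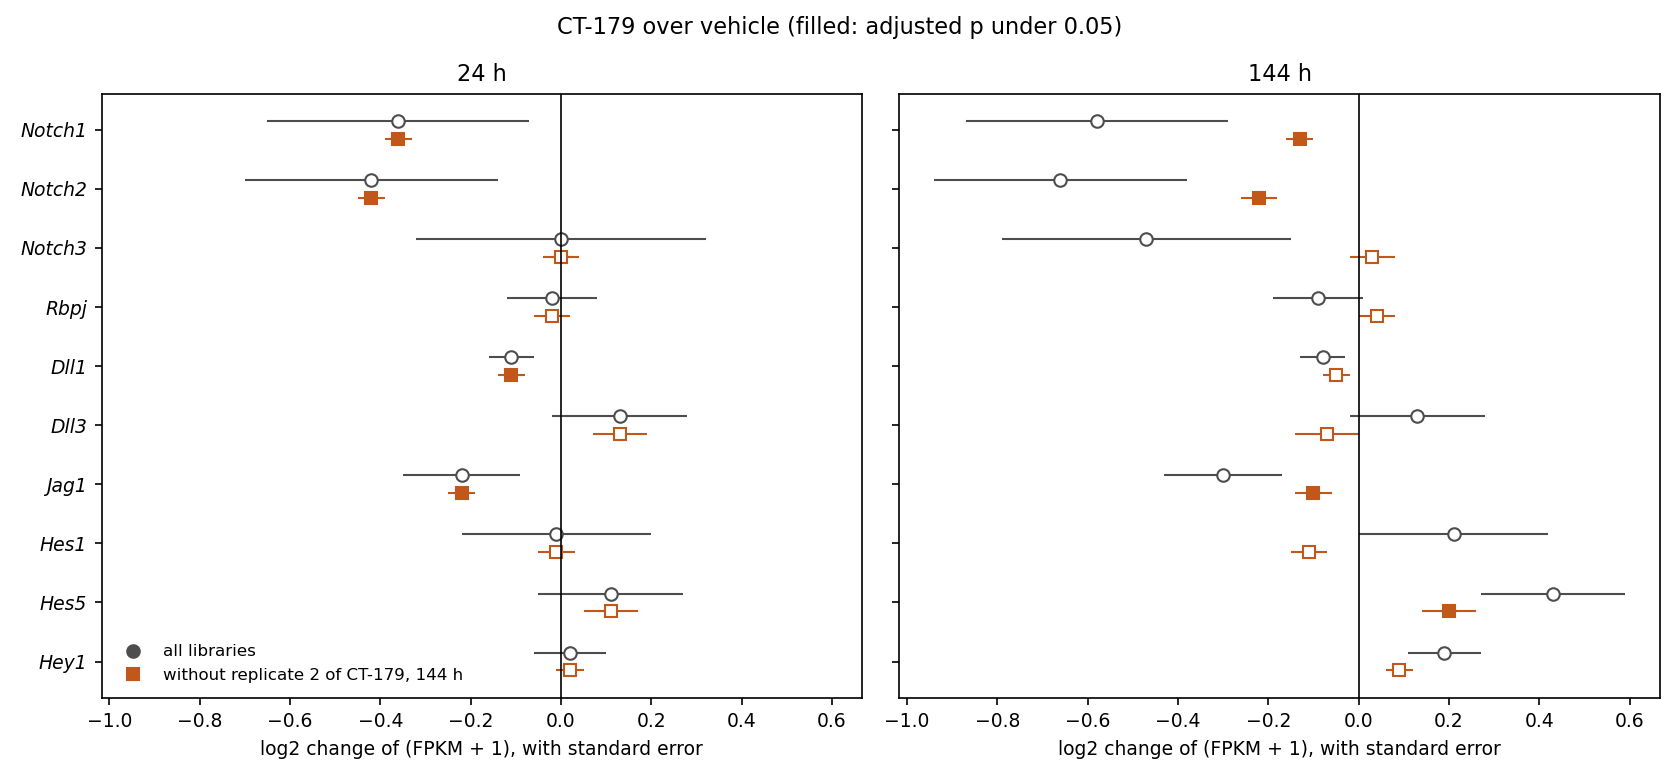
Log2 change of (FPKM + 1) by CT-179 over vehicle (horizontal axis) at 24 h and 144 h for each member, with standard errors, from all 12 cell libraries (grey circles) and without replicate 2 of CT-179 at 144 h (orange squares). Filled symbols have an adjusted p under 0.05: none with all libraries, and without the library Notch1, Notch2 and Jag1 lie left of 0 at both times and Hes5 lies at 0.20 at 144 h.

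At 144 h, none of the members passed with all libraries, with 3.88% of all genes called. An unadjusted p under 0.05 in limma was reached by 4 members (Notch2, Jag1, Hes5 and Hey1), beside 3647 of the 12510 genes tested. Hes5 read 194.9, 197.5 and 203.8 FPKM in vehicle and 227.8, 371 and 228.6 with CT-179. Every CT-179 library was above every vehicle library, and the log2 change was 0.43 (SE 0.16, adjusted p 0.15). Notch1 read 38.1, 14.2 and 37.8 FPKM with CT-179 against 40.9 to 42.3 in vehicle, and Notch2 24.2, 8.85 and 23.3 against 27.7 to 28.0. Jag1 read 6.27, 3.69 and 5.89 FPKM against 6.54 to 6.69. For all 3 genes the CT-179 libraries lay below vehicle, replicate 2 far below. Hey1 read 33.8, 41.0 and 32.7 FPKM against 30.8 to 31.3, above vehicle in each library. Dll1 also lay below vehicle in each library. The share of all genes that part in this way at 144 h was not counted.

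Without replicate 2, which leaves 2 libraries with CT-179 at 144 h, 4 of the 10 members were called among 28.7% of all genes. Notch2 fell by 0.22 (SE 0.04, adjusted p 0.0013), Notch1 by 0.13 (SE 0.03, adjusted p 0.015) and Jag1 by 0.10 (SE 0.04, adjusted p 0.046), and Hes5 rose by 0.20 (SE 0.06, adjusted p 0.034). With a replicate block added, Jag1 did not pass (-0.10, adjusted p 0.053) and the other calls stood. Hey1 at 0.09 (adjusted p 0.059) and Hes1 at -0.11 (adjusted p 0.084) did not pass. These calls moved with the length correction: Notch2 kept its direction at -0.13 (adjusted p 0.018), while Notch1 stood at -0.01 and neither Jag1 nor Hes5 passed. Under it Hes1 was called at -0.15 and Rbpj at 0.15. A fit of the 6 libraries of 144 h alone called no gene. Dll1, Dll3 and Notch3 were within 0.07 of vehicle on the log2 scale without replicate 2 and were not called; Dll3 read 96.1 and 92.7 FPKM in the 2 remaining libraries, against 95.5 to 101.2 in vehicle. Of the 3580 genes called over all, 1472 rose and 2108 fell, which became 2170 and 1676 with median-of-ratios scaling.

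The effect of CT-179 at 144 h minus that at 24 h also tests whether the time change differed between treatments. With all libraries no member and no gene of the 12510 passed (0% called in limma; 574 genes and none of the members at an unadjusted p under 0.05). The largest member value was -0.46 for Notch3 (SE 0.45). Without replicate 2, Notch1 passed at 0.23 (SE 0.05, adjusted p 0.028), with 2.66% of all genes called: its level was lower with CT-179 by 0.36 at 24 h and by 0.13 at 144 h. Notch2 followed at 0.20 (adjusted p 0.053). The targets stood at -0.10 for Hes1, 0.09 for Hes5 and 0.07 for Hey1, with adjusted p values of 0.42, 0.66 and 0.45.

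Among the 51 other pathway genes tested, none was called at 24 h with all libraries and 3 fell at 144 h: Tle2 by 0.54, Dner by 0.34 and Dtx1 by 0.32 (adjusted p 0.0058, 0.024 and 0.017). Dtx1 read 8.59, 8.41 and 8.34 FPKM in vehicle and 6.80, 6.29 and 6.61 with CT-179. Without replicate 2 the lists gave 4 genes that rose and 10 that fell at 24 h, and 6 and 13 at 144 h, of 50 tested, beside 22.2% and 28.7% called over all genes. Those that fell at 24 h included the acetyltransferases Ep300 (-0.35) and Crebbp (-0.30), the co-repressor Spen (-0.26), Mib1, the ligase that ligands need in the sending cell (-0.18), Notch4 (-0.15) and Pofut1 (-0.12). The values of these list genes carry no length correction, and the part of the length trend in them was not tested. At 24 h Nrarp rose by 0.13 (limma adjusted p 0.031), with 28.8, 30.1 and 28.6 FPKM against 26.5, 26.0 and 27.2. At 144 h Hey2 rose by 0.19 and Lfng by 0.12, and Ep300 (-0.27), Dner (-0.29), Dtx1 (-0.29) and Tle2 (-0.55) fell. Notch4, lower at 24 h, rose by 0.16 at 144 h (limma adjusted p 0.024). Its vehicle level at 144 h, given above, was under the 1 FPKM of the filter, where this scale understates changes. Its effects at 24 h and 144 h are therefore not on a like footing, and neither is their difference. In the difference of the effects 3 of the 50 passed, beside 2.66% of all genes: Notch4 at 0.31, Dner at -0.33 and Dtx1 at -0.36 (adjusted p 0.03, 0.033 and 0.028).

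The marker lists gave the following beside these drug comparisons. The summed astrocyte markers were 535 to 548 FPKM with CT-179 at 24 h against 504 to 534 in vehicle. At 144 h they were 1240 to 1340 against 1230 to 1240 (1320 to 1340 without replicate 2). The proliferation markers were 930 to 943 FPKM against 925 to 945 at 24 h. At 144 h their sum was 112 to 141 against 108 to 114 (112 to 113 without replicate 2). The granule and SHH markers did not overlap at either time, at 37.4 to 39.7 FPKM with CT-179 against 41.2 to 43.4 at 24 h and 44.7 to 69.9 against 82.4 to 84.6 at 144 h (67.8 to 69.9 without replicate 2). At 144 h the neuron markers were 59.5 to 94.3 FPKM against 99.9 to 103 (91.8 to 94.3 without replicate 2), and those of oligodendrocyte progenitors 720 to 845 against 678 to 703 (720 to 746). The mural markers were 3.56 to 4.27 FPKM against 2.92 to 3.32 at 24 h, and the oligodendrocyte markers 9.68 to 10.1 against 9.35 to 9.46. Their part in the CT-179 values was not tested.

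**Figure D5:**
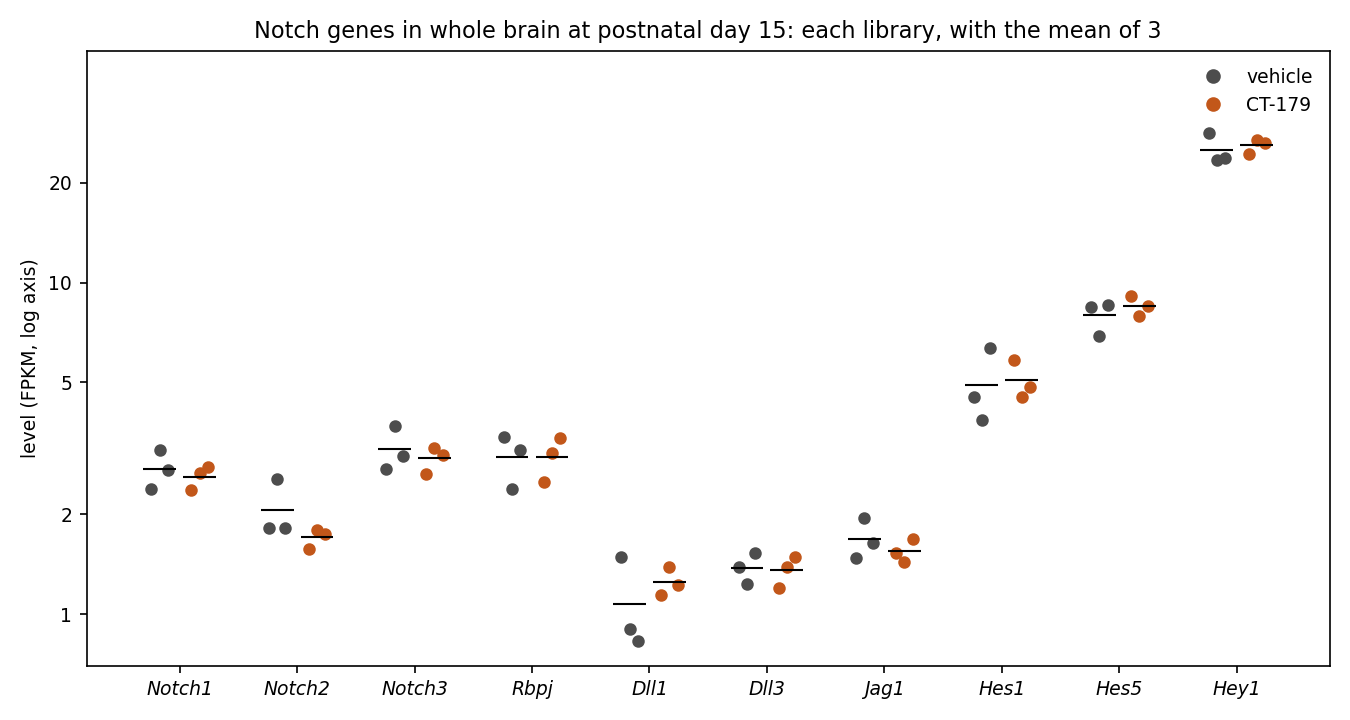
Level in FPKM (vertical axis, logarithmic) of each member in the 6 whole-brain libraries, vehicle in grey and CT-179 in orange, with the mean of 3 as a line. The 2 treatments overlap for each member but Notch2, and Hey1 lies highest at 23.4 to 28.2 FPKM.

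In whole brain the order of the members was another one, and CT-179 did not part the groups of any member but Notch2. Hey1 was the highest member, at 25.1 ± 2.68 FPKM (SD, n = 3) in vehicle, followed by Hes5 at 7.96 ± 0.93 and Hes1 at 4.90 ± 1.30, with no overlap among the 3. The receptors lay between 1.82 and 3.69 FPKM in vehicle. Notch3, Rbpj, Notch1, Notch2, Jag1, Dll3 and Dll1 followed each other in mean level, and each overlapped its neighbour. Dll1 and Dll3 were the lowest of the 10, at 1.07 ± 0.36 and 1.38 ± 0.14 FPKM. Whole brain holds many cell types, and the 8 endothelial markers, almost absent from the cell line, summed to 121 to 155 FPKM in vehicle and the 8 mural markers to 114 to 133.

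None of the 10 members passed between CT-179 and vehicle in brain, and neither did any other gene (0% of 13422 called in limma; 490 genes and none of the members at an unadjusted p under 0.05). Without vehicle replicate 2, the shallowest library, 0.00754% (1 gene, not a member) passed. In the authors' deposited table, whose folds were those of vehicle replicates 1 and 3 over the 3 CT-179 libraries, 17 genes had an FDR under 0.05 and each member had an FDR of 1. Notch2 read 1.82, 2.55 and 1.82 FPKM in vehicle and 1.58, 1.79 and 1.75 with CT-179, the only member whose groups did not overlap, as was the case for 10.3% of all genes tested, at a log2 change of -0.17 (SE 0.11, adjusted p 0.97). Without vehicle replicate 2 its change was -0.06. Hes1 read 4.52, 3.85 and 6.35 FPKM against 5.86, 4.51 and 4.86, and Hes5 8.44, 6.89 and 8.56 against 9.11, 7.94 and 8.52. Hey1 read 28.2, 23.4 and 23.8 FPKM against 24.5, 27.0 and 26.4. Dll1, with 1.48, 0.90 and 0.83 FPKM against 1.14, 1.39 and 1.23, had the largest positive value at 0.13 (SE 0.13). The vehicle libraries of Dll1 rested on 249, 48 and 145 fragments, which limits what could be detected for it. The standard errors of the members ran from 0.09 to 0.16 on the log2 scale. Of the 59 other pathway genes 55 could be tested, and none passed (1 at an unadjusted p under 0.05).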

How the data were processed

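RNA from cells and whole brains was sequenced as paired reads of 100 bases, per the labels' protocols. The submitters' processing notes name the mm10 genome and the tools STAR 2.6.0c, Trim Galore 0.5.0, edgeR 3.28.1 (R 3.6) and HTSeq 0.6.1p2. Their settings, the annotation and whether counting used strand are not given in the sources used here. FPKM of each library were deposited by the authors for cells and brain. Per the file headers, the authors' brain table adds a log2 fold change and mean log2 CPM, the likelihood ratio (a score), the p-value and its FDR.

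The FPKM were tested as log2(FPKM + 1) with limma 3.58.1 (R 4.3.3, trended prior), over genes of at least 1 FPKM in at least 3 libraries: 1 fit of 12 cell libraries (12510 genes) and 1 of 6 brain libraries (13422), without a block. The adjusted p covers all genes of a fit; the threshold was 0.05. No count test was used, since FPKM are not counts; fragments were inferred only to describe depth, from steps that came out whole within 0.1 fragment for 89.1% to 97.7% of low values. Tests were checked on simulated data with independent noise. These held no outlying library and no length trend, so the check does not cover either. Gene lengths came from GENCODE M21, which held 99.5% and 99.8% of the identifiers. The 10 members and all lists were chosen with earlier results of these data known. Named beside the members are up to 3 genes per list and comparison, those with the smallest p past the threshold; of these a choice is printed, and some genes are not reported here. Alternatives were another pseudocount, no filter, median-of-ratios and TPM scaling, a replicate block, array weights, a length correction, separate fits, and leaving out each library; 2 combinations were added after seeing the data (the block without replicate 2 of CT-179 at 144 h, and the length correction without brain vehicle replicate 2).

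Replicate numbers were taken to pair libraries where same-numbered deviations from the group means correlated above 0.1 in each pair. This held for CT-179 at 24 h and 144 h (0.109, 0.241 and 0.138) and for no other pair of groups (-0.394 to 0.112). Differently numbered replicates were not correlated, so the cut has no reference and does not show that the numbers pair. The part of the length trend in these values was not tested. No replicates were duplicates: in each pair the median squared deviation of the inferred fragments was at least 2.05 times that of sampling noise.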

Additional observations from a re-analysis of the deposited data

Results flagged for a closer look

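The effect of CT-179 on Notch1 differed between the 2 times in the test of the difference itself, when replicate 2 of CT-179 at 144 h was left out: the effect at 144 h minus that at 24 h was 0.23 on the log2 scale (SE 0.05, limma adjusted p 0.028). With all 12 libraries the value was -0.22 (SE 0.41, adjusted p 0.77). Groups of 3 libraries are too small to be screened for single outlying values.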

How the results depend on the processing

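The member counts over time were stable: 7 to 9 in vehicle and 7 to 9 in CT-179 when each library was left out in turn, and within 1.5 times of 8 and 7 under the other settings. In brain the count was 0 under each setting. The CT-179 counts, 0 with all libraries, depended on replicate 2 of CT-179 at 144 h. When each library was left out in turn they ran from 0 to 4 at 24 h, 0 to 4 at 144 h and 0 to 1 for the difference of the effects, and only leaving out that replicate gave a value above 0. Array weights gave 4, 7 and 1, and a separate fit gave 3 at 24 h. With the replicate left out, the counts were 3, 4 and 1 under median-of-ratios scaling, 4, 3 and 2 with the length correction, and 4, 3 and 1 with a replicate block (added after seeing the data). The replicate block with all libraries changed no member's call (0, 0, 0, 8, 7 and 0 called), including the CT-179 time comparison in which the numbers met the cut for pairing.

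Of 1280 values of single members under alternatives, 1106 kept direction and side of the threshold, 51 came to pass, 5 ceased to pass (Notch2 over time in vehicle), 104 changed sign without passing and 14 changed sign with a test passed. The last were Notch1 over time in CT-179 (-0.16 with all libraries; 0.30 with array weights, -0.38 to 0.29 leaving out single libraries, the latter without the replicate, then 0.28, 0.18 and 0.31 with scaling, length correction and block added), Notch1 in the difference of effects (-0.22; 0.26, then -0.45 to 0.23, then 0.22, 0.22 and 0.25 in the same order), Notch2 there with replicate left out and length correction (0.19), Hes1 at 144 h (0.21; -0.13 with array weights, -0.15 with replicate left out and length correction) and Rbpj at 144 h (-0.09; 0.15 in the latter). Leaving out the replicate alone turned the sign in each of these cases: besides Notch1, Notch2 in the difference went from -0.25 to 0.20, and at 144 h Hes1 from 0.21 to -0.11 and Rbpj from -0.09 to 0.04.

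Over all genes, counts that moved by more than 1.5 times were those of CT-179. At 24 h (33) they were 19 under median-of-ratios scaling, 2 with the block, 3319 with array weights, 1996 in a separate fit, and 1 to 2762 leaving out single libraries (1 to 42 when the replicate stayed in). At 144 h (486) they were 301 with the block, 5990 with array weights, 0 in a separate fit and 122 to 3580 leaving out single libraries (122 to 1142). For the difference (0) they were 28 without the filter, 10 with the length correction, 1 under TPM, 1231 with array weights and 0 to 331. With the replicate left out and scaling, length correction or block added, they were 3192, 2004 and 2561 at 24 h, 3846, 2936 and 3089 at 144 h, and 320, 394 and 150 for the difference. Under TPM the all-gene median shifted from -0.05 to -0.20 at 144 h and from -0.03 to -0.13 for the difference. With 3 libraries a group, brain changes of Dll1 and Dll3 rest on as few as 45 fragments.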
